A study of Rattus norvegicus with 2 samples.

Results

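The renal claudins described here are 10 genes, Cldn1, Cldn2, Cldn3, Cldn4, Cldn5, Cldn7, Cldn8, Cldn10, Cldn16 and Cldn19, of 13435 genes that could be named on the array. They were chosen by name, and every probe whose accession mapped to one of them was used, 13 probes of 40998 in all. The rule used no measured value, although the set was proposed with earlier results of these data known. Kidney RNA was taken from females of the PCK strain, in which a Pkhd1 mutation gives rise to cysts like those of human autosomal recessive polycystic kidney disease, so every animal in both groups carries the disease allele. The pioglitazone group was gavaged daily with 10 mg/kg of pioglitazone, a drug that activates PPAR-gamma, between 4 and 20 weeks of age, and the vehicle group received 0.5% DMSO over the same ages. Each group was 1 pool of kidney RNA on 1 Cy3 array. The labels give the pool as 5 females in one place and as 3 rats in another. Normal +/+ rats, which the treatment text also names, are not analysed here.

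Claudins are small membrane proteins that form the strands of the tight junction, the seal between neighbouring epithelial cells. Their combination sets which ions and how much water can pass between the cells of each nephron segment. The proximal tubule is leaky to sodium and water, the thick ascending limb lets calcium and magnesium pass, and the collecting duct is tight. In a cystic kidney the cyst wall is an epithelium of this kind, and its junctions bear on fluid that collects in the lumen.

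With 1 array per group there was no replicate check, so no test was possible and no p-value is given. A difference is the log2 signal in the pioglitazone pool minus that in the vehicle pool, after each array's 75th percentile was subtracted. It was set against 2 times the technical error, which combines the scanner software's errors of both spots and holds no spread between animals. For bright spots the software's error was a near-fixed share of the signal, such as 312 at 3120 and 644 at 6440. The technical error was therefore close to 0.20 for nearly every bright gene and is not a noise level measured for that gene. Replicate spots within these arrays gave the difference a median SD of 0.07. A gene counted as measured when its brightest probe was well above background on both arrays, which 10484 genes met. A gene counted as higher or lower when it differed by 1.5-fold or more, a log2 difference of 0.58, and by more than 2 times its technical error. Median signals over all deposited values were 46.8 and 47.7, no spot was saturated, and the defining kidney markers Lrp2, Umod, Aqp2, Nphs1 and Kdr were measured on both arrays. In bulk RNA, fewer cells of a type and less RNA per cell cannot be told apart.

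All 10 claudins were measured, and none was higher or lower by the 1.5-fold rule. Over all measured genes 0.754% were higher (79) and 1.76% lower (184) by it, so a count of 0 among 10 genes lies near that background. Without scaling between the arrays that split was 130 higher and 117 lower. The claudin differences ran from -0.42 (Cldn8) to 0.33 (Cldn1) around a median of -0.03, where the median over all measured genes was 0.03. The difference was positive in 4 of the 10, against 56.2% of all measured genes. Among genes above the median signal it was positive in 3 of 8 claudins, against 63.1% of genes. The count of 4 depended on the scaling. It was 6 with median scaling and without scaling, where the median of all genes was 0.08 and 0.11. With quantile and cyclic loess normalization it was 3. The central 95% of measured genes lay between -0.53 and 0.41, and every claudin lay inside it. Among the 5242 genes above the median signal, which include 8 of the claudins, the central 95% was narrower, between -0.36 and 0.31, and of these 8 Cldn4, at -0.37, lay outside it. Only Cldn8 differed by more than 2 times its technical error, in the negative direction, which 3.84% of measured genes did, while 1.76% did so in the positive direction. That step past the error depended on the scaling: Cldn8 was inside it with median scaling (-0.37), without scaling (-0.34) and with normexp background correction (-0.35), while Cldn1 passed it without scaling (0.42) and Cldn4 just passed it with cyclic loess (-0.41). All 13 claudin probes were read from 1 spot each, and 3 members had a second probe.

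**Figure D1:**
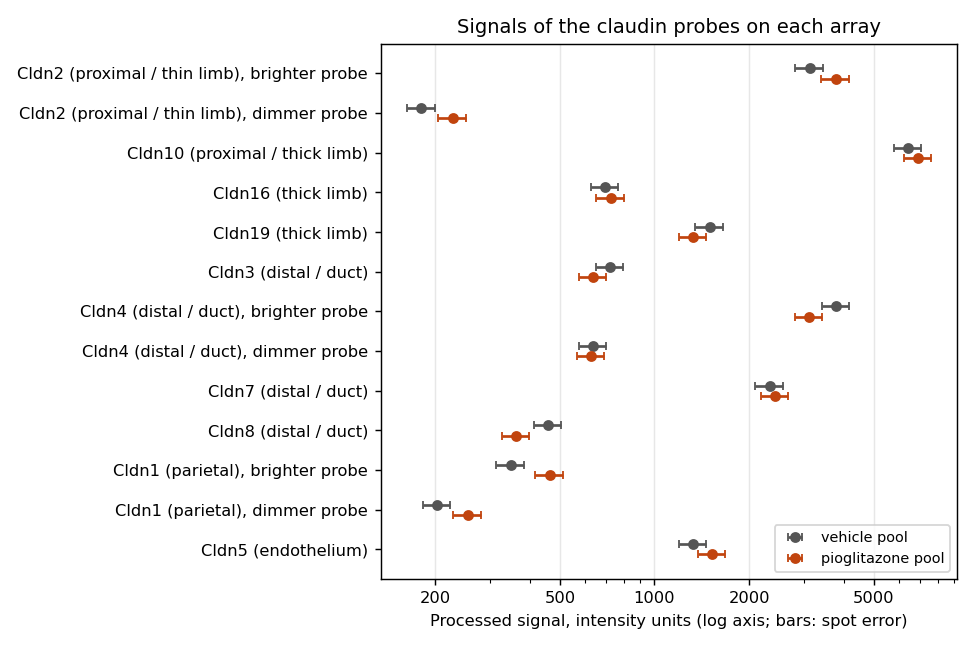
Processed signal of each claudin probe on the vehicle array and the pioglitazone array, on a log axis in intensity units, ordered by nephron segment, with bars for the software's error of the spot. The error bars of the paired, unscaled points do not overlap for Cldn8, for both probes of Cldn1 and for the dimmer probe of Cldn2, and levels of different probes are not to be compared.

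Cldn2 forms a pore for sodium and water and marks the proximal tubule and the thin descending limb. Its brighter probe read 3120 in the vehicle pool and 3780 in the pioglitazone pool, a log2 difference of 0.19 with a technical error of 0.20. Its dimmer probe read 181 and 228, a log2 difference of 0.25. Both probes were therefore brighter with pioglitazone, each by less than 2 times its error. Of measured genes, 84.7% had a lower difference than the brighter probe. The 12 measured proximal tubule genes had a median difference of 0.09, with 10 positive and 0 past the 1.5-fold rule.

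Cldn10 is made in an anion-selective form in the proximal tubule and a cation-selective form in the thick ascending limb. Only 1 probe was assigned to it, and which form that probe reads is not known here. It read 6440 with vehicle and 6920 with pioglitazone, a log2 difference of 0.02. The unscaled signal was 7.45% brighter, and the scaled one 1.5%. The sign of this difference turned negative with quantile and cyclic loess normalization.

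Cldn16 and Cldn19 together form the path by which the thick ascending limb takes up calcium and magnesium, and loss of either causes magnesium wasting. Cldn16 read 696 with vehicle and 725 with pioglitazone, a log2 difference of -0.02. Its sign turned positive with median scaling, without scaling and with normexp background correction. Cldn19 read 1500 with vehicle and 1330 with pioglitazone, a log2 difference of -0.26 with a technical error of 0.20. This was negative under each scaling and with normexp, between -0.29 and -0.17, yet inside 2 times the error. The other settings, which alter filters, flagged spots, bands or the mean over probes, left its value the same and bear nothing on the sign. The thick ascending limb markers measured beside them had a median difference of 0.15 over 11 genes, 9 of them positive, with a lowest value of -0.11 for Ptger3. Cldn19 thus had a lower value than each of these 11 markers, and the gap was not tested. Umod, which encodes the secreted protein uromodulin, was at 0.09, and Casr, the calcium-sensing receptor, was at 0.08. Cldn14, which blocks the path formed by Cldn16 and Cldn19, read 85.5 and 97.6, a log2 difference of 0.11.

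Cldn3, Cldn4, Cldn7 and Cldn8 belong to the distal nephron and the collecting duct. Cldn8 is needed to place Cldn4 in the junction, and both form a route for chloride there. Cldn8 read 458 with vehicle and 362 with pioglitazone, a log2 difference of -0.42 with a technical error of 0.20. Of measured genes, 4.55% had a lower difference. It rests on 1 spot, and no second probe of the gene was available to set against it.

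Cldn4 read 3790 and 3110 on its brighter probe, a log2 difference of -0.37, and 637 and 629 on its dimmer probe, a log2 difference of -0.10. The probes shared a direction and differed in size, and neither passed 2 times its error. The mean over both was -0.23. Cldn3, a sealing claudin, read 723 and 637, a log2 difference of -0.26. Cldn7, which also lies on the lateral membrane below the junction, read 2330 and 2420, a log2 difference of -0.03 whose sign turned positive with median scaling and without scaling. Of these 4 genes, Cldn8, Cldn4 and Cldn3 were negative under each scaling and with normexp, and Cldn7 was not.

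**Figure D2:**
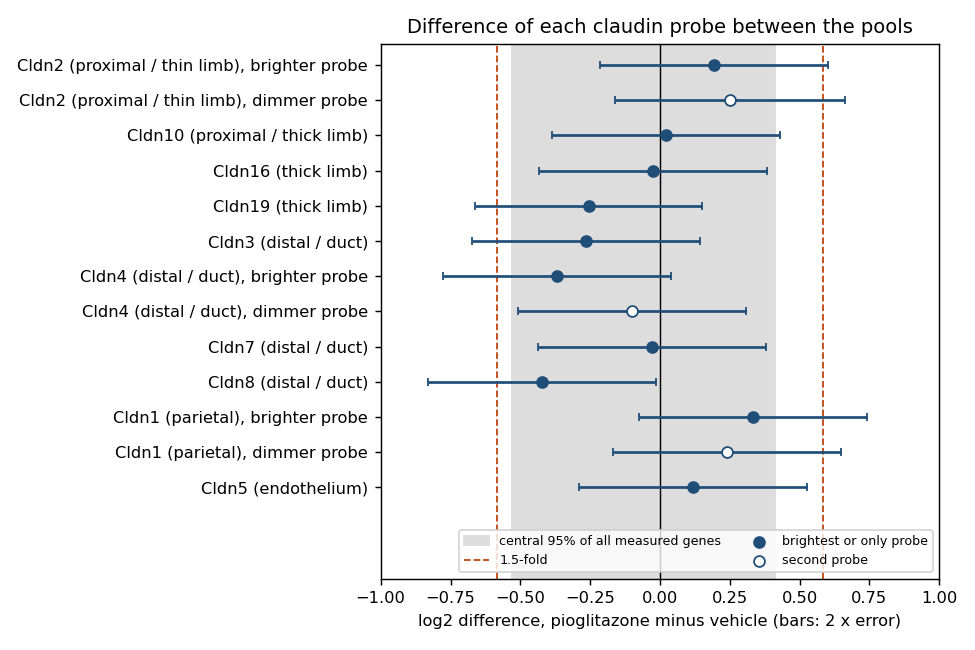
Log2 difference of each claudin probe, pioglitazone minus vehicle, with bars of 2 times the technical error, the central 95% of all measured genes shaded and the 1.5-fold threshold dashed. Filled points are the brightest or only probe of a gene and open points a second probe, and the bar of Cldn8 alone does not reach 0.

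The principal cells of the collecting duct and other cells of the kidney are given here by their marker lists. Over 11 principal cell genes the median difference was -0.08, 5 were positive and 0 passed the 1.5-fold rule. This median was 0 without scaling between arrays, and 0.12 over the 5 genes left without the sixth and the seventh of 10 bands of grid rows. The water channels Aqp2 (-0.34) and Aqp3 (-0.29) and the transcription factor Gata3 (-0.43) had negative values. The sodium channel subunits Scnn1a (0.27), Scnn1b (0.12) and Scnn1g (0.19) had positive ones. Urothelial genes, from an epithelium that also makes claudins, were negative in 6 of 6 measured, with a median of -0.46. Tp63 (36.2 with vehicle and 24.9 with pioglitazone) and Psca (33.7 and 23.6) were dim. Krt15 (-1.03), Tp63 (-0.62) and Psca (-0.60) were lower by the 1.5-fold rule, which 1.76% of all measured genes met in that direction. With median scaling Tp63 (-0.57) and Psca (-0.54) no longer met it, nor did they with quantile normalization, without scaling or with normexp, and Psca also fell short with cyclic loess (-0.58). The summed unscaled signal of the 6 urothelial genes was 2326 with vehicle and 1941 with pioglitazone, and each was well above background on both arrays. Upk2 is not analysed here. Genes of proliferation and tubular injury were negative in 12 of 12, with a median of -0.34. Of these, Krt8 (1790 with vehicle and 1880 with pioglitazone) was negative only through the scaling. The mitotic cyclins Ccnb2 (-0.68) and Ccna2 (-0.66) and the injury marker Havcr1 (-0.60) were lower by the rule. Havcr1 no longer met it with median scaling (-0.54) and without scaling (-0.52), Ccna2 without scaling (-0.58), and both cyclins with normexp (-0.37 for Ccnb2 and -0.38 for Ccna2). The part of these cells in the values of Cldn3, Cldn4 and Cldn8 was not tested.

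Cldn1 is a barrier claudin and a marker of the parietal cells that line Bowman's capsule. Its brighter probe read 348 with vehicle and 464 with pioglitazone, a log2 difference of 0.33 with a technical error of 0.20. Its dimmer probe read 203 and 254, a log2 difference of 0.24. Both probes were brighter with pioglitazone and neither passed 2 times its error. Of measured genes, 95.4% had a lower difference than the brighter probe. Under the settings that gave a value Cldn1 lay between 0.29 and 0.42. Beside it, 7 genes listed for podocytes and parietal cells had a median difference of 0.13, and 6 were positive. The slit diaphragm gene Nphs1 was at 0.32.

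Cldn5 seals the junctions of endothelial cells. It read 1330 with vehicle and 1530 with pioglitazone, a log2 difference of 0.12. Of 14 measured endothelial genes 8 were positive, with a median difference of 0.05, and the defining markers were at 0.21 for Kdr, 0.37 for Cdh5 and -0.09 for Pecam1. Cdh5 was dim, with signals of 24.2 and 33.2.

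Beyond the members, 12 further claudin and claudin-domain genes were named on the array, and 10 were measured. Their median difference was 0.007, 5 were positive, and none met the 1.5-fold rule. Cldn9 read 5930 with vehicle and 5060 with pioglitazone, a log2 difference of -0.31. Cldn12 was at 0.07, Cldn23 at 0.10, Cldn6 at -0.06, Cldn11 at 0.09, Cldn15 at -0.18 and the claudin-domain gene Cldnd1 at -0.30. Cldn17 and Cldn34e were not well above background on either array.

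For genes of the proteins that share the junction with claudins, median differences lay close to that of all genes. Among 12 strand and receptor partners the median was 0.03, 8 were positive, and none passed the 1.5-fold rule. Occludin (Ocln) was at 0.01 and the junction adhesion molecule F11r at 0.02. Epcam, which holds Cldn7 at the membrane, was at 0.05. Marveld2, which seals tricellular junctions, was at 0.26, and Pmp22 was at -0.21. Among 17 scaffold and polarity genes the median was -0.05, with 5 positive and 0 past the rule. The polarity kinase Prkcz was at 0.38 and the scaffold Mpdz, which binds claudins, at 0.26. The kinase Prkci was at -0.47, with dim signals of 21.7 and 16.6, and the scaffold Pals1 was at -0.39. None of the 17 differed by more than 2 times its technical error. The scaffold protein Tjp1 was at -0.29 and its relative Tjp3 at -0.17.

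Adherens junction and desmosome genes had negative differences in 9 of 10, with a median of -0.16, where 43.8% of all measured genes were negative. Of these, Cdh16 (10800 on both arrays), Ctnna1 (2990 on both) and Cdh1 (6690 and 6850) were negative only through the scaling. Without scaling the list median was -0.07 and that of all genes 0.11. None passed the 1.5-fold rule. Ctnnd1, the catenin p120, was at -0.56 with signals of 80.0 and 57.3, Dsc2 at -0.30 and the cadherin Cdh1 at -0.05. The only positive value was that of Jup, at 0.03. Among 20 regulators of claudins the median was 0.02, 14 were positive and 0 passed the rule. The ubiquitin ligase Lnx2 was at 0.33 and the transcription factor Hnf4a at 0.29, and the lowest values were those of the kinase Oxsr1 (-0.17) and the transcription factor Grhl2 (-0.16). The kinase Wnk4, which acts on claudins of the distal nephron, was at 0.01.

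**Figure D3:**
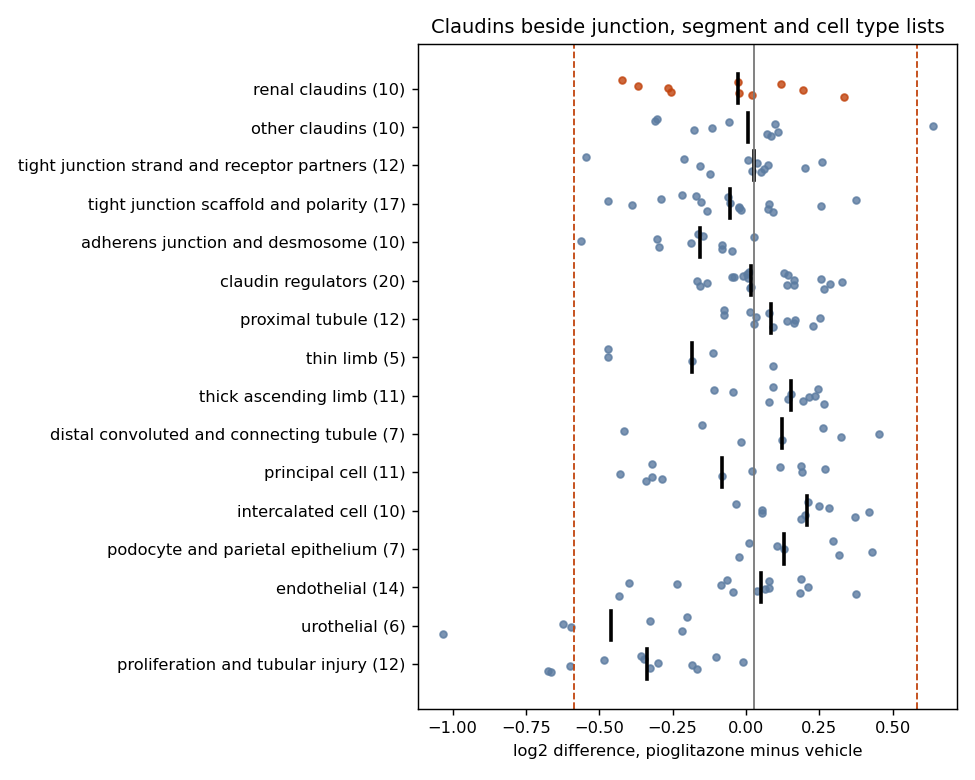
Log2 difference of each measured gene, pioglitazone minus vehicle, in the renal claudins (orange) and in the lists of other claudins, junction partners, nephron segments and cell types (blue), with the number measured in parentheses. Black bars are list medians, the grey line is the median of all measured genes and dashed lines mark 1.5-fold, and the 10 renal claudins all lie between the dashed lines.

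The remaining segment lists gave a background for the claudins by position. For the thin limb the median difference was -0.18, with 1 of 5 genes positive, Aqp1 (0.09), which is also in the proximal tubule list. For the distal convoluted and connecting tubules it was 0.12, with 4 of 7 positive. For intercalated cells it was 0.21, with 9 of 10 positive. None of the genes in these 3 lists passed the 1.5-fold rule.

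**Figure D4:**
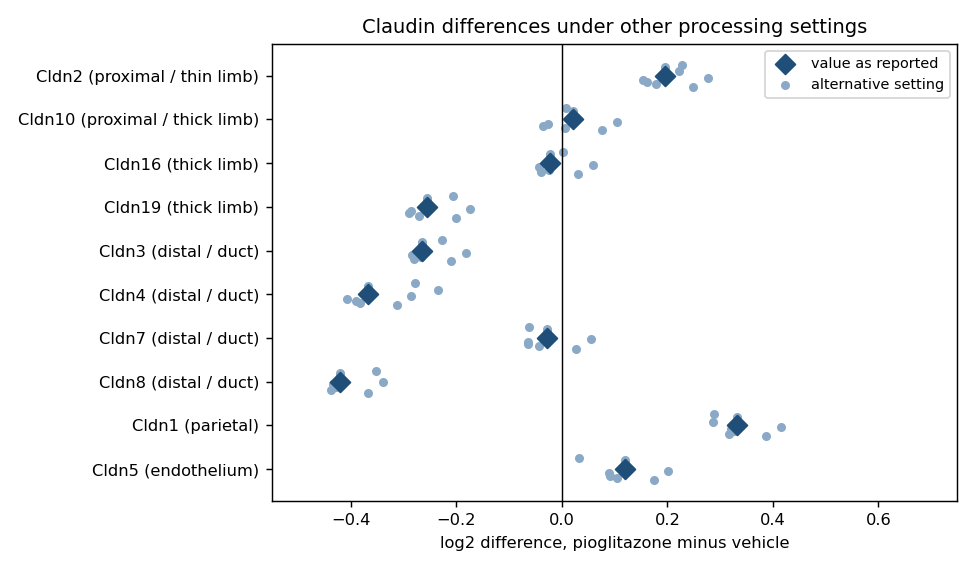
Log2 difference of each claudin as reported (diamonds) and under the alternative settings (small points), on the same axis for all 10 genes. Cldn7, Cldn10 and Cldn16 cross 0, and the other 7 stay on one side of it.

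Position and sequence were looked at for what the rule did not use. In RefSeq's gene order on GRCr8, Cldn3 and Cldn4 are neighbours, with differences of -0.26 and -0.37, and so are Cldn16 and Cldn1, with differences of -0.02 and 0.33. Promoters of 8 members were found in RefSeq's sequences, and Cldn2 and Cldn4 were not among the matches. The 250 bases before the start were searched on both strands for AGGTCA, the half-site of PPAR-gamma and other nuclear receptors, and for a direct repeat of it with 1 base between, which contains the half-site. The half-site was found in 1 of the 8, Cldn7, 121 bases before the start, and the direct repeat in 0 of the 8. Of all 33469 promoters of this length, 14.1% held the half-site and 0.0508% the direct repeat. A match describes letters only.

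Shown from 5′ to 3′, with the half-site in capitals, are the promoter bases of the claudin with the highest difference (Cldn1, chr11:87926126-87926375, plus strand), of that with the lowest (Cldn8, chr11:41364331-41364580, minus strand) and of the one that holds the half-site (Cldn7, chr10:55188420-55188669, plus strand), all on GRCr8.
Cldn1: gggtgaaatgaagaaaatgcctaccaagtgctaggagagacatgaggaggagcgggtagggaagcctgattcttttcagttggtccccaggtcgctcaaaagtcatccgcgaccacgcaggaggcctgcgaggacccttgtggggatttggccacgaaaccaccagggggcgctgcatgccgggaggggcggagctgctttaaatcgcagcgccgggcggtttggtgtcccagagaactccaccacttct
Cldn8: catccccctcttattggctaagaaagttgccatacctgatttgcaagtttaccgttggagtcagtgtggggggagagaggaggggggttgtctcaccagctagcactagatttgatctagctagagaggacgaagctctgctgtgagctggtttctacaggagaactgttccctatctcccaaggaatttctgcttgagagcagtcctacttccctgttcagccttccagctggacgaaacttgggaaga
Cldn7: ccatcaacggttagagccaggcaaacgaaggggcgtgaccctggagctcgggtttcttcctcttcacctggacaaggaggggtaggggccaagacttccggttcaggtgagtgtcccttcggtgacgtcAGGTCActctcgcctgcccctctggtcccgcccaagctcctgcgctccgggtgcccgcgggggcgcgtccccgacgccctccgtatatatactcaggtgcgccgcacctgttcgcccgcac
The capitals in the Cldn7 sequence mark its half-site, and the other sequences hold none. Cldn7 had a log2 difference of -0.03, and Cldn1 and Cldn8 had differences of 0.33 and -0.42.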

How the data were processed

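Kidney RNA pools of 2 groups, vehicle and pioglitazone, were each hybridised to 1 array. The authors deposited linear spot intensity values. These were made with Agilent Feature Extraction 10.7.3.1, per the submitters' processing notes and the file headers, with background subtraction and spatial detrending inside each array, and the arrays were not scaled to each other. The deposited value table equals the processed intensity at all 45018 features of each array, so its scale is linear and uncentred.

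Here log2 signals were taken, and the 75th percentile of each array over spots other than controls was subtracted, which removed a shift of 0.08. Spots with outlier flags, 149, were left out, and replicate spots were averaged. Probes were named through unversioned RefSeq accessions (GRCr8), which named 16959 of 40998 probes (41.4%). By the naming rule, any probe whose accession mapped to several symbols was left unnamed. A gene took its brightest probe. Of 43379 spots, 71.8% were well above background on the vehicle array and 73.1% on the pioglitazone array, and the number of arrays limits the precision. The median technical error was 0.20. Among replicate spots of 203 bright probes printed 10 times, the difference had a median SD of 0.07.

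The members and gene lists were chosen with earlier results of these data known. Named genes are all members, the other claudins, defining cell markers, the genes of each junction and regulator list with the largest differences in each direction, the genes past 1.5-fold, and genes named for their role. The steps were tested on simulated data. Python 3.11.15, R 4.3.3 and limma 3.58.1 were used. Some genes that this rule selects are left out of the text.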

Additional observations from a re-analysis of the deposited data

How the results depend on the processing

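Each group has 1 array, so the spread between animals is unknown, and signal over background limits the dim claudins most. A claudin's value was held to have moved when it shifted by its technical error or more. For a list median the limit was the median technical error (0.20). A count was held to have moved when it changed by more than 1.5-fold, or to or from 0. Over 11 alternatives no claudin moved by its technical error. The count past 1.5-fold was 0 under each of them, at 2-fold, with no limit on the error and at 3 times the error. Much of this was fixed in advance. The filters, flagged spots and bands left each claudin the same or gave no value, and the mean over probes could change only members with a second probe. Median scaling and no scaling shift all genes equally, by less than the technical error. Stricter limits could not raise a count of 0. Cldn7, Cldn10 and Cldn16 changed sign with the scaling. The median of the 10 claudins was positive with median scaling (0.03) and without scaling (0.06), where the median of all genes moved to 0.08 and 0.11. Without scaling 130 genes were higher and 117 lower by the 1.5-fold rule, against 79 and 184, and with median scaling 109 and 132. With normexp 10 were higher and 48 lower, above the median signal 5 and 30, and 128 and 229 when dim probes were kept. Of genes in the other lists, 6 were lower and 0 higher by the rule, with 3 lower under median scaling, 2 lower and 1 higher without scaling, 1 lower above the median signal and 2 lower with normexp. Above the median signal the list of other claudins held 1 gene, Cldn9 (-0.31), and the urothelial median was -0.23 with normexp. The medians of other claudins, strand partners, scaffold genes, principal cells and endothelium also reached or crossed 0 under at least 1 alternative. Cldn1 and Cldn8 lie below the median signal and have no value there, nor have Cldn7 and Cldn8 without the sixth and the seventh of 10 bands of grid rows. Normexp on median signals was added after seeing the data, and the planned form on mean signals was not run. For these shifts the cause was not tested. No paired analysis was possible because both groups hold a single array, which also leaves no replicate to leave out.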

Other observations

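Readings of some dim claudins were far apart and lay within 2 times their errors. Cldn22 read 11.9 with vehicle and 19.6 with pioglitazone, a log2 difference of 0.64 with a technical error of 0.35, so it passed 1.5-fold and not 2 times its error. The 3 probes of Cldn18, a claudin of stomach and lung, disagreed. Its brightest probe was at -0.11 with signals of 9.46 and 9.25, and the other probes, not well above background on either array, were at 1.69 and -0.86 with technical errors of 1.5 and 1.69. The other dim claudins that were measured had small values, such as 0.09 for Cldn11 and -0.06 for Cldn6.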
